A study of Mus musculus with 18 samples.

Results

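The genes described here are 7 protein-coding genes whose mRNA level differed between brown adipocytes transfected with the antisense oligonucleotide LNA1 and those transfected with the control oligonucleotide ctrlA. They are 7 of 54347 genes in the count table, and all 7 were among the 14949 genes that passed the filter on low counts. Fam83e passed only through its LNA1 libraries: of the 12 other libraries, 1 reached the filter's level of 0.774 CPM. Sh3d21, Fam83e, Carmil2 and Sh2d5 were higher with LNA1, and Dtwd2, St7 and Ube2e2 were lower. The 7 genes were picked from these same libraries by the difference between LNA1 and ctrlA, so that this difference, and any difference of a single LNA from another, is given as a description with its standard error (SE) and without a test.

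The cells were wt1-SAM, an immortalised mouse brown preadipocyte line that stably expresses the CRISPR activation system SAM, and every group carries that system. All were differentiated for 7 days and reverse transfected on day 4 with ctrlA (a non-targeting scrambled sequence), LNA1 or LNA2, both directed against the long non-coding RNA Gm15551, and were then left unstimulated or given 1 μM isoproterenol, an agonist of beta-adrenergic receptors, for the last 24 h. Each of the 6 groups held 3 libraries of polyadenylated RNA, numbered 2, 3 and 4, and nothing in the labels says whether these came from separate cultures, so that the spread between them may be technical. This is 1 line from 1 laboratory, and nothing here was measured in animals.

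An LNA gapmer is a short DNA oligonucleotide with locked nucleic acid bases at both ends. It pairs with a complementary RNA, and ribonuclease H then cuts the RNA strand of the hybrid. RNAs with partial complementarity can also be bound, which is why a pair of gapmers with different sequences is commonly used against a single target. The sequences are shown because all comparisons below are between them, and they are written in full from 5′ to 3′ in lower case.
LNA1: gatgactgagattaga
LNA2: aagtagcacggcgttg
ctrlA: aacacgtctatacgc

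Each targeting LNA had 1 fully complementary site in the annotated Gm15551 transcript, which lies antisense within an intron of Camk2d at chr3:126667329-126669044 on the minus strand (GRCm38, GENCODE M21). The LNA1 site was at chr3:126667502-126667517 and the LNA2 site at chr3:126667608-126667623. Both are in an exon, and capitals mark bases that pair with the LNA.
Gm15551 site of LNA1: TCTAATCTCAGTCATC
Gm15551 site of LNA2: CAACGCCGTGCTACTT
The best match of ctrlA in Gm15551 had 7 mismatches over its 15 bases. Gm15551 itself was scarcely detected. In unstimulated cells it had 14, 8 and 7 counts with ctrlA, 12, 3 and 3 with LNA1 and 13, 3 and 1 with LNA2 (replicates 2, 3 and 4), and in stimulated cells 9, 2 and 2 with ctrlA, 1, 4 and 1 with LNA1 and 4, 5 and 1 with LNA2. The groups overlapped in both states, and the depth of these libraries could not show how far the target fell. The paper itself reports that both targeting LNAs robustly lowered Gm15551 by day 7, relative to the control LNA.

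The 7 proteins have unrelated roles. Sh3d21 encodes a protein with SH3 domains, small modules that bind proline-rich peptides. Fam83e belongs to the FAM83 family, whose shared domain binds casein kinases 1 and brings them to particular places in the cell. Carmil2 is a regulator of the actin capping protein, which blocks the growing end of actin filaments. Sh2d5 encodes an adaptor with an SH2 and a phosphotyrosine-binding domain. Dtwd2 modifies uridine bases in transfer RNA, Ube2e2 is a ubiquitin-conjugating enzyme, and St7, named suppressor of tumorigenicity 7, is a membrane protein. None is a classical marker of brown adipocytes.

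Library totals ranged from 9167560 to 19723021 counts, so that 3 counts, taken as the floor of detection, was worth 0.170 to 0.306 CPM (normalised counts, put on the same library size by the TMM method). The libraries numbered 2 stood apart. Mitochondrially encoded RNA took 7.86% to 9.79% of their counts against 2.56% to 4.97% in the others, and CT010467.1, a ribosomal RNA gene, 2.88% to 14.3% against 0.285% to 1.04%. The largest ribosomal share was in unstimulated LNA1 replicate 2. Values without the 6 libraries numbered 2 are therefore given beside the main comparisons. The adipocyte genes Fabp4 (7081 to 20720 CPM) and Adipoq (262 to 771 CPM) were present in every library, while of the 10 brown adipocyte markers Dio2 was under 1 CPM in all. Ucp1, the uncoupling protein that defines brown fat, ranged from 0.621 to 16.5 CPM.

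The genes that were higher with LNA1 were scarce with both other LNAs. Sh3d21 (chr4:126150602-126163491, minus strand) had 0.681, 1.01 and 1.22 CPM in unstimulated ctrlA cells, 5.26, 8.87 and 13.4 CPM with LNA1 and 0.496, 1.06 and 0.910 CPM with LNA2. In stimulated cells it had 0.304, 1.16 and 0.919 CPM in ctrlA cells, 6.57, 13.2 and 18.6 CPM with LNA1 and 1.14, 1.02 and 2.15 CPM with LNA2. Every LNA1 library exceeded every other library, while ctrlA and LNA2 overlapped. The log2 fold change of LNA1 against ctrlA was 3.24 (SE 0.51) in unstimulated and 3.99 (SE 0.53) in stimulated cells, that is 9.48-fold and 15.9-fold. Against LNA2 it was 3.45 (SE 0.52) and 3.14 (SE 0.50).

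Fam83e (chr7:45721212-45729492, plus strand) had the lowest mean CPM of the 7 genes in ctrlA and in LNA2 cells. In unstimulated cells it had 2, 4 and 0 counts with ctrlA, 21, 29 and 33 with LNA1 and 3, 8 and 10 with LNA2, and in stimulated cells 7, 3 and 10 counts with ctrlA, 38, 70 and 58 with LNA1 and 4, 3 and 6 with LNA2. The LNA1 libraries were again all above the rest. In CPM the means with LNA1 were 2.57 ± 0.787 (SD, n = 3) in unstimulated and 4.36 ± 0.887 (SD, n = 3) in stimulated cells. The log2 fold change against ctrlA was 4.14 (SE 0.65) and 2.96 (SE 0.56) in the respective states, and against LNA2 it was 2.30 (SE 0.56) and 3.57 (SE 0.58). The first of these rests on 6 counts in the 3 unstimulated ctrlA libraries together, and it was 5.09 without unstimulated ctrlA replicate 3.

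Carmil2 (chr8:105686274-105698187, plus strand) had 0.454, 1.59 and 1.31 CPM in unstimulated ctrlA cells, 2.29, 7.01 and 8.95 CPM with LNA1 and 0.496, 1.28 and 1.75 CPM with LNA2. After isoproterenol it had 0.988, 1.42 and 1.43 CPM in ctrlA cells, 3.99, 11.7 and 11.0 CPM with LNA1 and 0.570, 2.52 and 1.54 CPM with LNA2. LNA1 lay above both other LNAs in each state, and replicate 2 was the lowest of the 3 libraries in every group. Its log2 fold change was 2.46 (SE 0.63) and 2.80 (SE 0.63) against ctrlA, and 2.34 (SE 0.63) and 2.51 (SE 0.62) against LNA2. On the opposite strand, exons of Acd, a telomere protein gene, overlap those of Carmil2 over 1208 bases, and whether the quantification used strand was not stated. Acd had 61.4 ± 11.9 CPM in ctrlA cells and 55.4 ± 12.1 CPM with LNA1 in unstimulated cells (SD, n = 3), with an averaged log2 fold change of -0.15 (SE 0.19, edgeR adjusted p = 1.0). The SD of Acd, taken over unpaired libraries, was larger than the difference in Carmil2. Whether reads of the 2 genes were mixed was not tested, and same-numbered libraries were not compared for Acd.

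Sh2d5 (chr4:138250403-138261332, plus strand) was also more abundant with LNA2 than with ctrlA, in both states. In unstimulated cells it had 1.08, 1.08 and 1.22 CPM in ctrlA cells, 2.97, 7.45 and 8.04 CPM with LNA1 and 1.65, 1.49 and 3.36 CPM with LNA2. In stimulated cells it had 0.912, 1.09 and 1.33 CPM in ctrlA cells, 3.99, 7.35 and 8.34 CPM with LNA1 and 1.80, 4.09 and 4.15 CPM with LNA2. The ctrlA libraries were below both others, whereas LNA1 replicate 2 fell within the range of LNA2 in each state. LNA1 gave a log2 fold change of 2.44 (SE 0.45) and 2.56 (SE 0.45) against ctrlA, and of 1.49 (SE 0.43) and 0.96 (SE 0.42) against LNA2. LNA2 was above ctrlA by 0.94 (SE 0.45) in unstimulated and 1.60 (SE 0.46) in stimulated cells, and in 6 of 6 pairs of libraries with the same number. The value in unstimulated cells was 0.48 without unstimulated LNA2 replicate 4. Sh2d5 shares 74 exonic bases with Kif17 on the same strand, which had at most 7 counts in any library.

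**Figure D1:**
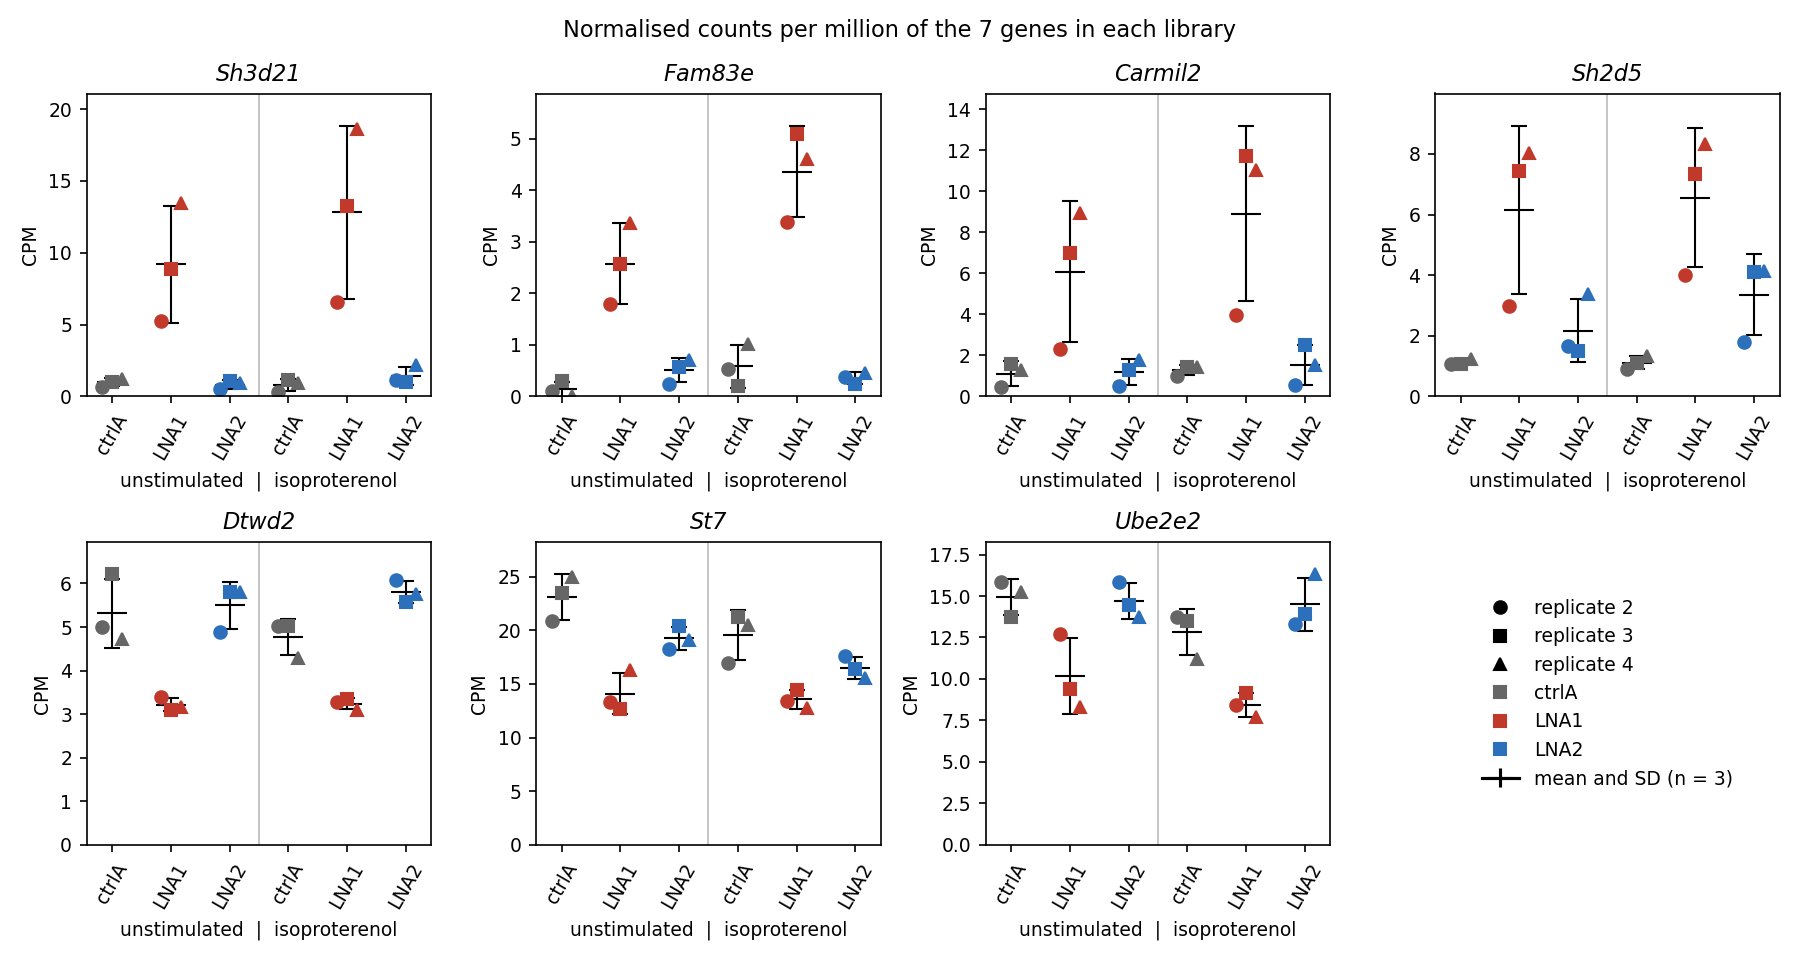
Normalised CPM of the 7 genes (vertical axes, linear from 0), with 1 point per library, the mean as a horizontal line and the SD (n = 3) as a bar, for each LNA in unstimulated (left of each panel) and isoproterenol-treated cells (right). Within each state, LNA1 libraries (red) lie above all others for Sh3d21, Fam83e and Carmil2 and below all others for Dtwd2, St7 and Ube2e2. Error bars are not drawn below 0. For Sh2d5 the circle of LNA1 replicate 2 falls among the LNA2 libraries.

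In ctrlA and LNA2 cells, the genes that were lower with LNA1 were more abundant than the higher genes. The lower genes also moved less on the log2 scale. Dtwd2 (chr18:49696145-49755601, minus strand) had 4.99, 6.21 and 4.73 CPM in unstimulated ctrlA cells, 3.40, 3.11 and 3.15 CPM with LNA1 and 4.87, 5.81 and 5.81 CPM with LNA2. In stimulated cells it had 5.02, 5.02 and 4.29 CPM in ctrlA cells, 3.28, 3.35 and 3.10 CPM with LNA1 and 6.08, 5.58 and 5.77 CPM with LNA2. LNA1 was below both other LNAs without overlap, and its 6 libraries spanned only 3.10 to 3.40 CPM. The log2 fold change was -0.72 (SE 0.16) and -0.56 (SE 0.16) against ctrlA and -0.77 (SE 0.16) and -0.84 (SE 0.16) against LNA2.

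St7 (chr6:17692933-17943025, plus strand) had 20.8, 23.5 and 25.0 CPM in unstimulated ctrlA cells, 13.3, 12.7 and 16.3 CPM with LNA1 and 18.3, 20.4 and 19.1 CPM with LNA2. After isoproterenol it had 16.95, 21.2 and 20.5 CPM in ctrlA cells, 13.4, 14.5 and 12.8 CPM with LNA1 and 17.6, 16.4 and 15.5 CPM with LNA2. LNA1 was the lowest in both states, and in unstimulated cells LNA2 lay between LNA1 and ctrlA without overlap with either. The log2 fold change of LNA1 was -0.71 (SE 0.14) and -0.53 (SE 0.14) against ctrlA but -0.45 (SE 0.14) and -0.28 (SE 0.14) against LNA2. That of LNA2 against ctrlA was -0.26 (SE 0.14) and -0.25 (SE 0.14). An antisense gene, Gm26738, overlaps St7 over 569 exonic bases and had 0 counts in every library.

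Ube2e2 (chr14:18573575-18894267, minus strand) had 15.8, 13.7 and 15.3 CPM in unstimulated ctrlA cells, 12.7, 9.40 and 8.34 CPM with LNA1 and 15.9, 14.5 and 13.7 CPM with LNA2. In stimulated cells it had 13.8, 13.5 and 11.2 CPM in ctrlA cells, 8.43, 9.17 and 7.71 CPM with LNA1 and 13.3, 13.9 and 16.3 CPM with LNA2. LNA1 was below both other LNAs, which overlapped each other. In Ube2e2 the log2 fold change was -0.55 (SE 0.16) and -0.61 (SE 0.17) against ctrlA and -0.53 (SE 0.16) and -0.78 (SE 0.17) against LNA2.

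The direction of LNA1 against ctrlA, and of LNA1 against LNA2, was the same in 6 of 6 pairs of same-numbered libraries for each of the 7 genes. All 7 had LNA1 and ctrlA groups that did not overlap in either state, where 2.18% of all genes tested did so in a single direction, and 6 of 7 had this for LNA1 and LNA2 against a background of 2.46%. Since LNA1 libraries were used to choose the genes, nothing is read from these pairs or shares. LNA2 and ctrlA did not overlap for Sh2d5 in both states, for St7 in unstimulated cells and for Dtwd2 in stimulated cells. The log2 fold change of LNA2 against ctrlA for the other higher genes was -0.20 (SE 0.55) in unstimulated and 0.85 (SE 0.55) in stimulated cells for Sh3d21, 1.83 (SE 0.72) and -0.61 (SE 0.65) for Fam83e, and 0.11 (SE 0.66) and 0.29 (SE 0.65) for Carmil2. For Dtwd2 it was 0.05 (SE 0.16) and 0.28 (SE 0.16) and for Ube2e2 -0.02 (SE 0.16) and 0.18 (SE 0.16). Fam83e in unstimulated cells thus had a larger value than Sh2d5, on 6 counts with ctrlA and 21 with LNA2 in all. Leaving out 1 library at a time turned the sign for Carmil2 in both states (-0.29 and -0.25 at the lowest). It also turned for Fam83e in stimulated cells (0.01 without isoproterenol ctrlA replicate 4). In unstimulated cells it turned for Sh3d21 (0.07), Dtwd2 (-0.02) and Ube2e2 (0.02). Fam83e in unstimulated cells reached 2.79 without unstimulated ctrlA replicate 3. Among all genes the share without overlap was 8.75% in unstimulated and 8.99% in stimulated cells, and these comparisons share the ctrlA libraries with the choice of genes.

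**Figure D2:**
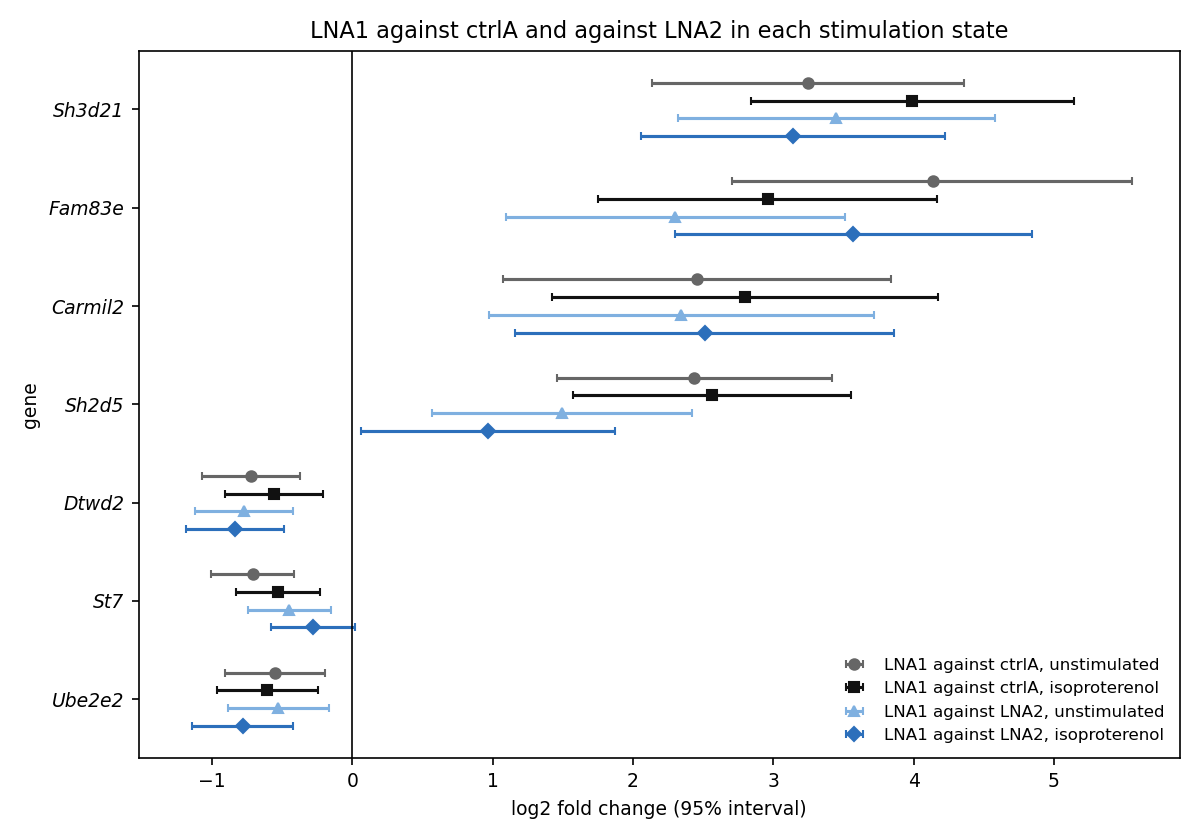
Log2 fold change (horizontal axis) with its 95% interval from the fitted model, for LNA1 against ctrlA (grey and black) and against LNA2 (light and dark blue) in unstimulated and stimulated cells. The 4 genes that were higher with LNA1 lie between 0.96 and 4.14 and the 3 that were lower between -0.84 and -0.28. St7, Sh2d5 and Carmil2 in both states, Fam83e and Ube2e2 in unstimulated and Sh3d21 in stimulated cells lie closer to 0 against LNA2 than against ctrlA.

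Without the libraries numbered 2, the log2 fold change of LNA1 against ctrlA in unstimulated cells was 3.34 for Sh3d21, 4.23 for Fam83e, 2.48 for Carmil2, 2.77 for Sh2d5, -0.78 for Dtwd2, -0.72 for St7 and -0.67 for Ube2e2. In stimulated cells it was 3.92, 3.15, 3.01, 2.73, -0.51, -0.59 and -0.54 in the same order. Against LNA2 it was 3.49, 2.21, 2.39, 1.67, -0.89, -0.45 and -0.66 in unstimulated and 3.30, 3.75, 2.48, 0.92, -0.82, -0.24 and -0.85 in stimulated cells. All 7 directions were kept in these comparisons, but for ctrlA the choice of genes without overlap had fixed this. LNA2 stayed above ctrlA for Sh2d5, by 1.10 and 1.81 in the respective states, and below it for St7, at -0.27 and -0.36. For Sh3d21, Fam83e, Carmil2 and Sh2d5, replicate 2 held the lowest CPM of the 3 LNA1 libraries in each state.

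The levels of the 7 genes relative to each other were compared as CPM per kilobase of annotated exon, since they differ in length. In unstimulated ctrlA cells the order was Ube2e2 (3.23 ± 0.237), St7 (2.56 ± 0.233), Dtwd2 (1.51 ± 0.224), Sh3d21 (0.358 ± 0.101), Sh2d5 (0.302 ± 0.0222), Carmil2 (0.203 ± 0.108) and Fam83e (0.0349 ± 0.0378) (CPM per kilobase, mean ± SD, n = 3). Of neighbours in this order, Sh3d21 and Sh2d5, and Sh2d5 and Carmil2, differed by less than the larger SD of the pair. With LNA1 in unstimulated cells the means were 3.38 ± 1.51 CPM per kilobase for Sh3d21, 2.20 ± 0.495 for Ube2e2, 1.65 ± 0.741 for Sh2d5, 1.56 ± 0.212 for St7, 1.11 ± 0.624 for Carmil2, 0.914 ± 0.0442 for Dtwd2 and 0.669 ± 0.205 for Fam83e (SD, n = 3). Here no neighbours among the first 6 differed by more than the larger SD, and in replicate 2 Ube2e2 (2.75) was above Sh3d21 (1.94). Fam83e was below Dtwd2 by more than either SD, whereas in stimulated LNA1 cells its mean of 1.13 was above the 0.921 of Dtwd2.

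Whether the genes responded to isoproterenol was tested, since stimulation was not used to choose them, although the LNA1 and ctrlA libraries were. Fam83e is left out of the counts of genes called, because it passed the filter only through LNA1. Averaged over the LNAs (9 libraries against 9), 3.2% of all genes tested changed with isoproterenol (edgeR quasi-likelihood test, two-sided, adjusted p below 0.05 and absolute log2 fold change above 0.5), and 0 of the other 6 did. The smallest adjusted p was that of St7, with a log2 fold change of -0.17 (SE 0.08, edgeR adjusted p = 0.315). Before adjustment its p was 0.0454 (edgeR), and no other of the 6 was below 0.05, where 2242 of all 14949 genes were. The largest difference was that of Fam83e, at 0.73 (SE 0.36, 95% interval -0.06 to 1.53). The 95% interval was -0.22 to 0.18 for Dtwd2 and -0.37 to 0.04 for Ube2e2, but -0.40 to 1.18 for Carmil2, -0.31 to 0.99 for Sh3d21 and -0.32 to 0.78 for Sh2d5. A fit with the replicate number as a block called 1046 genes in place of 479, and again 0 of the 6 (St7: edgeR adjusted p = 0.0515). Without the libraries numbered 2 the averaged log2 fold change was 0.37 for Sh3d21, 0.54 for Fam83e, 0.29 for Carmil2, 0.27 for Sh2d5, -0.08 for Dtwd2, -0.21 for St7 and -0.07 for Ube2e2.

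In the LNA2 libraries, none of which was used to choose the genes, 0.395% of all genes tested changed with isoproterenol, and 0 of the 6 genes did, with an edgeR adjusted p of 1 for each. Fam83e had 3 to 10 counts in these libraries. With the replicate block 635 genes were called in place of 59, and 0 of the 6. The log2 fold change there was 0.79 (SE 0.54) for Sh3d21, -0.50 (SE 0.64) for Fam83e, 0.39 (SE 0.65) for Carmil2 and 0.63 (SE 0.43) for Sh2d5. It was 0.08 (SE 0.16) for Dtwd2, -0.22 (SE 0.14) for St7 and -0.02 (SE 0.16) for Ube2e2. Without the libraries numbered 2 these were 0.68, -0.84, 0.41, 0.76, -0.04, -0.31 and 0.10 in the same order, so that the sign for Dtwd2 and Ube2e2, both close to 0, turned. With ctrlA (background 0.488%) and with LNA1 (background 0.702%), whose libraries were used to choose the genes, 0 of the 6 were called, and nothing is read from this. Fam83e was 1.94 (SE 0.72) higher on the log2 scale in stimulated than in unstimulated ctrlA cells, from 6 to 20 counts in total, which is a description without a test, and this value was 1.32 without isoproterenol ctrlA replicate 4 and 2.90 without unstimulated ctrlA replicate 3.

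**Figure D3:**
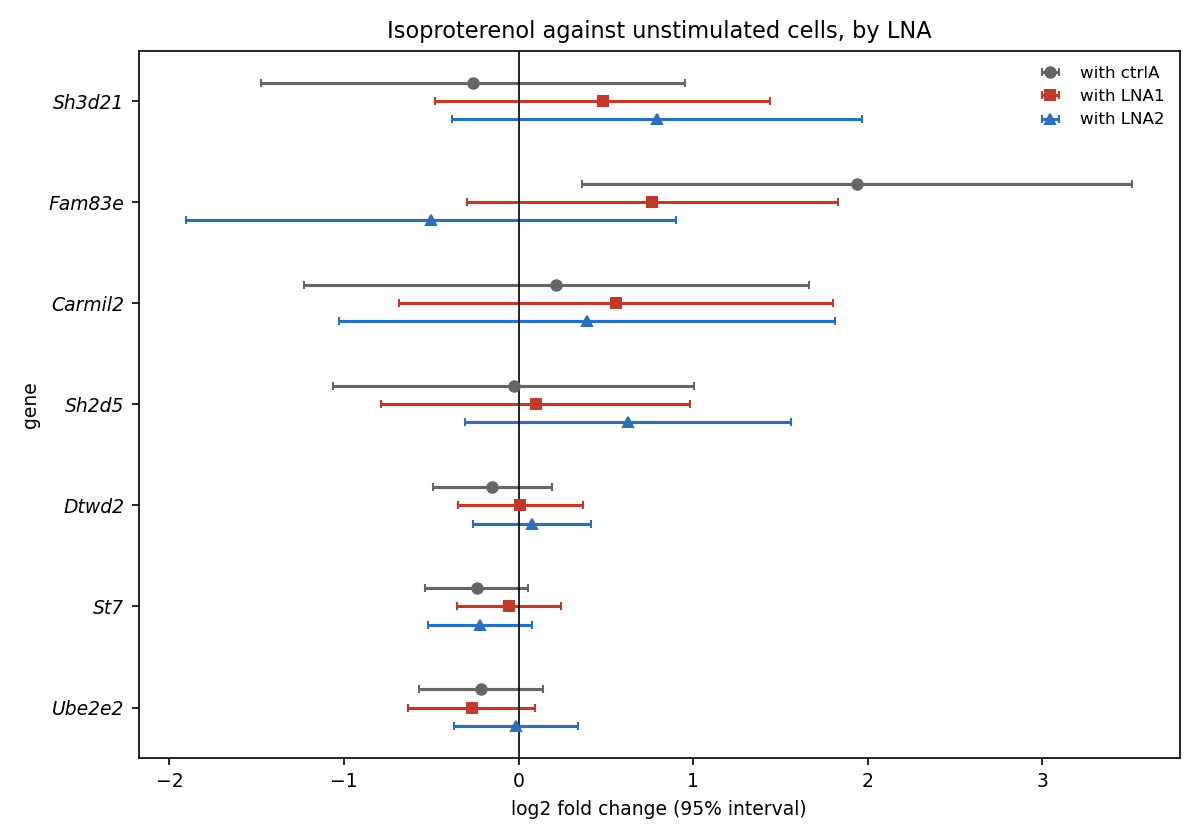
Log2 fold change of isoproterenol-treated against unstimulated cells (horizontal axis) with its 95% interval, for each gene in ctrlA (grey circles), LNA1 (red squares) and LNA2 cells (blue triangles). The intervals, which are not adjusted for the number of genes, include 0 except that of Fam83e in ctrlA cells. That value rests on 6 and 20 counts and is given as a description, with no test read from it. The intervals are narrow for Dtwd2, St7 and Ube2e2 and wide for the scarcer genes.

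It was then tested over all genes whether the difference between LNA1 and ctrlA itself changed with stimulation. No gene of the 14949 passed (0% at an edgeR adjusted p below 0.05, with 105 genes at an unadjusted p below 0.05, and 0 genes with DESeq2, with 78 at an unadjusted p below 0.05). The 7 genes were chosen for an LNA1 difference in both states of these same libraries, so that their values are a description without a test. The change in the log2 difference was -1.17 for Fam83e (95% interval -3.04 to 0.69) and ranged from -2.13 without unstimulated ctrlA replicate 3 to -0.55 without isoproterenol ctrlA replicate 4. It was 0.75 for Sh3d21 (-0.81 to 2.30), 0.34 for Carmil2 (-1.58 to 2.26) and 0.13 for Sh2d5 (-1.24 to 1.49). For Dtwd2 it was 0.16 (-0.33 to 0.65), for St7 0.18 (-0.24 to 0.60) and for Ube2e2 -0.05 (-0.56 to 0.45). Without the libraries numbered 2 it was -1.08 for Fam83e, 0.58 for Sh3d21, 0.54 for Carmil2, -0.04 for Sh2d5, 0.26 for Dtwd2, 0.12 for St7 and 0.14 for Ube2e2.

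Likeness between genes was described by correlation over libraries. The mean of each replicate number was removed from log2 CPM, and Pearson's r was taken over the 18 libraries. Between the higher genes r ranged from 0.80 (Fam83e and Sh2d5) to 0.93 (Sh3d21 and Carmil2). Between the 3 lower genes it ranged from 0.70 to 0.86, and between a higher and a lower gene from -0.92 (Sh2d5 and St7) to -0.70 (Sh2d5 and Dtwd2). The mean of each LNA was not removed, so that the LNA1 difference by which the genes were chosen sets the sign and much of the size of these values, and they do not show that the genes followed each other within a group. By the same measure over all genes tested, the patterns most like Sh3d21 were those of Fes (r = 0.98), a tyrosine kinase, and Chd2 (r = 0.96), a chromatin remodeller, and Fes also ranked second for Carmil2 (r = 0.95). Fes had a mean of 1.00 CPM in ctrlA cells, 5.62 CPM with LNA1 and 1.02 CPM with LNA2, and Chd2 had 109 CPM, 236 CPM and 113 CPM. Ephx3 (r = 0.96) was the closest to Carmil2, Naprt (r = 0.91) to Fam83e and Cdk18 (r = 0.93) to Sh2d5. Polk, a DNA polymerase that copies across damaged bases, was among the 3 closest to both Dtwd2 (r = 0.92) and Ube2e2 (r = 0.88), with 15.1 CPM, 8.55 CPM and 19.0 CPM in the same order, and Cgnl1 (r = 0.93) was the closest to Dtwd2, Tars (r = 0.93) to St7 and Tfg (r = 0.90) to Ube2e2.

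Related genes were examined to see whether whole families differed. Of 24 relatives of the 7 genes, 13 passed the filter, and the other 11 had at most 13 counts in any library. With LNA1 against ctrlA, 0.442% of all genes tested were called and 0 of the 13 relatives were (edgeR). At an unadjusted p below 0.05 there were 0 of the 13 for LNA1 against ctrlA, 3 for LNA1 against LNA2 and 3 for isoproterenol, where 899, 1375 and 2242 of all 14949 genes were. With LNA1 against ctrlA their median log2 fold change was -0.02, as was that of all genes tested, and their values ran from -0.17 (Sh2d6) to 0.13 (Fam83a). With LNA1 against LNA2 (background 0.923%), 1 of the 13 was called, the actin regulator Carmil1, which had a mean of 18.9 CPM in ctrlA cells, 19.6 CPM with LNA1 and 11.3 CPM with LNA2 (log2 fold change 0.80, SE 0.14, edgeR adjusted p = 0.0093). Against ctrlA its log2 fold change with LNA1 was 0.05 (SE 0.14). With the replicate block 364 genes were called for LNA1 against ctrlA and 615 for LNA1 against LNA2, in place of 66 and 138, and Carmil1 stayed the only relative among them. With isoproterenol (background 3.2%) 1 of the 13 fell, Fam83a (log2 fold change -0.69, SE 0.09, edgeR adjusted p = 0.000287), whose LNA1 and ctrlA means were 75.3 CPM and 68.1 CPM.

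Of the 11 partner genes, which were 6 casein kinases 1 (bound by FAM83 proteins), 3 subunits of actin capping protein (bound by CARMIL proteins) and 2 ubiquitin-activating enzymes (which load ubiquitin-conjugating enzymes), all 11 passed the filter and 0 were called in any of these 3 comparisons (edgeR). At an unadjusted p below 0.05 there were 0, 0 and 1 of the 11, beside the counts over all genes given above. Their log2 fold change of LNA1 against ctrlA ran from -0.18 (Csnk1e) to 0.16 (Csnk1g1), with a median of -0.02.

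The annotated transcripts of the 7 genes were searched for stretches complementary to LNA1. Introns were not searched. None of the 7 had a full site, nor did any of 14936 genes tested with an annotation. The longest uninterrupted run of paired bases was 11 in St7, a length that 0.69% of genes reached, then 9 in Carmil2 and Ube2e2 (12.4% of genes), 8 in Dtwd2 (40.5%), 7 in Fam83e (77.3%) and 6 in Sh3d21 and Sh2d5. Longer transcripts offer more chances, and the median gene with a run of 11 had 7451 exonic bases, where St7 has 9042. The 3 longest sites are shown with the run in capitals, as 5′ to 3′ of the RNA strand, each in an exon of a transcript without an annotated coding sequence.
St7 chr6:17835079-17835094, plus strand: aCTAATCTCAGTttgc
Carmil2 chr8:105696566-105696581, plus strand: ggTAATCTCAGcattc
Ube2e2 chr14:18887552-18887567, minus strand: TCTAATCTCcttgttg
These stretches contain part of the Gm15551 site of LNA1 shown above. Counted by mismatches over all 16 bases instead, Dtwd2 had the closest site with 3 (2.11% of genes had 3 or fewer), St7 had 4 (18.7%), Fam83e, Carmil2 and Ube2e2 had 5 (66.8%) and Sh3d21 and Sh2d5 had 6 (95.1%). The Dtwd2 site crosses an exon junction. Over its 15 bases ctrlA had 3 mismatches in St7 (1.61% of genes had 3 or fewer), 4 in Sh3d21 and 5 in the other genes. LNA2 had 4 in Fam83e (9.21% of genes had 4 or fewer) and 5 in Carmil2, Dtwd2 and St7. In Sh3d21, Sh2d5 and Ube2e2 it had 6. A match of letters does not show that the RNA was bound or cut.

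**Figure D4:**
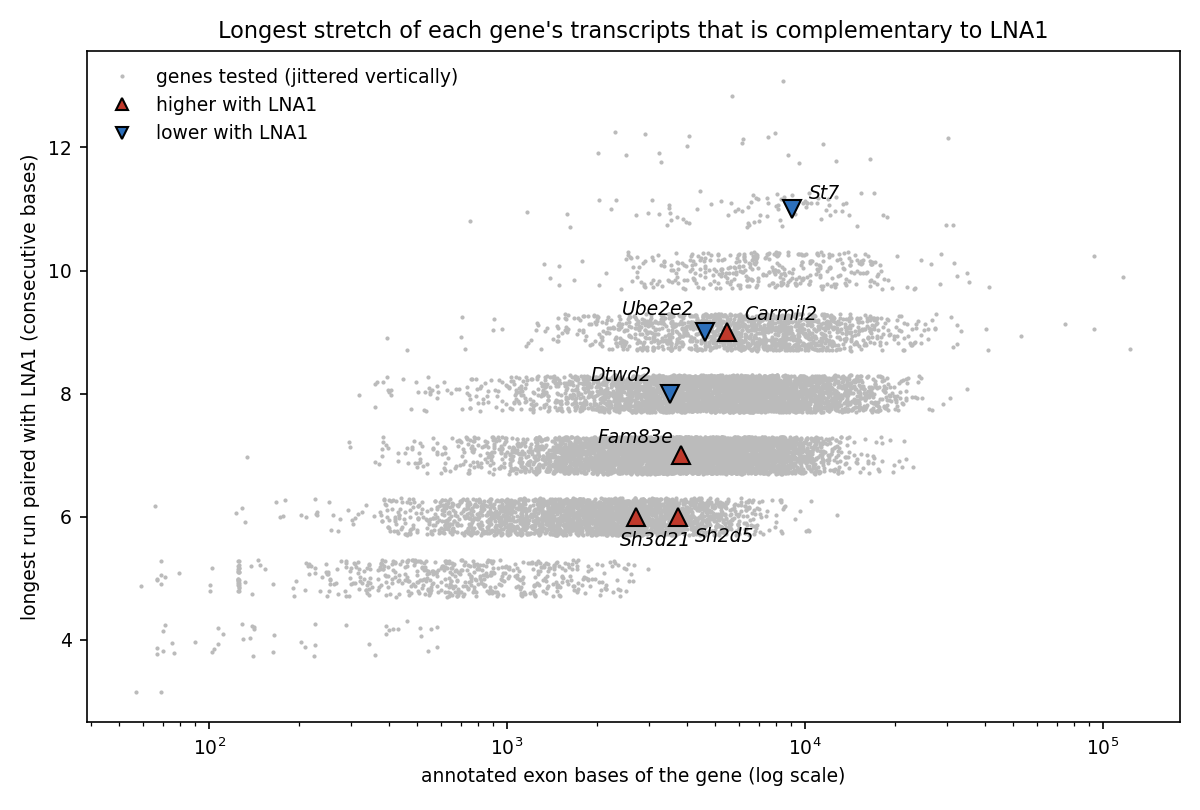
Longest run of consecutive bases paired with LNA1 (vertical axis, bases; grey points jittered) against the exonic bases of each gene tested (horizontal axis, log scale). Red triangles mark genes that were higher with LNA1 and blue triangles those that were lower. St7 stands at 11, Carmil2 and Ube2e2 at 9, Dtwd2 at 8, Fam83e at 7 and Sh3d21 and Sh2d5 at 6.

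The higher and the lower genes differed in the length of their loci. Sh3d21, Fam83e, Carmil2 and Sh2d5 span 12890, 8281, 11914 and 10930 bases, below the median of 18143 bases over genes tested. Dtwd2 spans 59457 bases, St7 250093 bases and Ube2e2 320693 bases, and 81%, 97.7% and 98.6% of genes tested were as short or shorter. With 7 chosen genes this is a description.

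Promoters of the genes were compared in the RefSeq table of GRCm38.p6, from 250 bases before to 50 bases after the start of transcription. Of the 7 genes, Sh3d21, Fam83e, St7 and Ube2e2 had entries. One start of Sh3d21 and that of Fam83e are shown, on the strand of the gene. Capitals mark the motifs searched for on both strands. These were GGGCGG, the SP1 box, and TGACG, the core of the cAMP response element TGACGTCA and overlapping it. The others were TATAAA, known from core promoters, and CACGTG, the E-box.
Sh3d21 chr4:126162616-126162915, minus strand: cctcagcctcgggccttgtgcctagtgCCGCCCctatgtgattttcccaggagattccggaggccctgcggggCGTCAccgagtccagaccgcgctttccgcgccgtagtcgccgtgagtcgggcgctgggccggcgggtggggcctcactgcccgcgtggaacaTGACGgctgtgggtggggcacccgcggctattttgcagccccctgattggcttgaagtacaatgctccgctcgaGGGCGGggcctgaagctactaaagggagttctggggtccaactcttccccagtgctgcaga
Fam83e chr7:45720970-45721269, plus strand: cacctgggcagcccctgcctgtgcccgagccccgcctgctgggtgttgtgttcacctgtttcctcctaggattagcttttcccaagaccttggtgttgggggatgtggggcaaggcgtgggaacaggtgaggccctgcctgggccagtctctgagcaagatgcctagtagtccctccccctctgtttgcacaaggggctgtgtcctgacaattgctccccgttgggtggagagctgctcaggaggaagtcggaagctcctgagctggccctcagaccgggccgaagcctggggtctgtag
The Sh3d21 window held GGGCGG at 2 places and TGACG at 2, and 25 CpG dinucleotides, and the other Sh3d21 window, at chr4:126163292-126163591, held GGGCGG and TATAAA at 1 place each, no TGACG and 6 CpG dinucleotides. The Fam83e window held none of these motifs and 7 CpG dinucleotides, the median of all 32851 windows. Of all windows, 35.7% hold GGGCGG, 20.8% TGACG, 1.79% TGACGTCA, 13.6% TATAAA and 7.15% CACGTG. The Ube2e2 window at chr14:18893364-18893663 had 55 CpG dinucleotides, and 99.8% of windows had as few or fewer, and 1 of the 3 St7 windows held the full TGACGTCA. No single motif was found in both windows shown.

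The choice of genes had no sharp limit. Averaged over stimulation, Sh2d5 ranked 4 among the higher genes with a log2 fold change of 2.501 (SE 0.32) against ctrlA, and Ephx3 (2.49, SE 0.37), Fes (2.48, SE 0.39) and Avil (2.46, SE 0.41) followed. Among the lower genes Dtwd2 (-0.64, SE 0.11), St7 (-0.62, SE 0.10) and Ube2e2 (-0.58, SE 0.12) stood beside Adhfe1 (-0.55, SE 0.11) and Kif16b (-0.53, SE 0.08). In all, 42 higher and 6 lower genes were called, showed no overlap between LNA1 and ctrlA in both states, and averaged 1 CPM or more.

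The ranges of summed markers of cell types, taken over both states and all replicate numbers, overlapped between the LNAs. Same-numbered libraries were not compared for these sums. Of the 10 brown adipocyte markers, Fabp4 alone had 7081 to 20720 CPM over all libraries. Their sum thus says little about scarcer ones such as Ucp1 (0.621 to 16.5 CPM). The summed level was 11630 to 23610 CPM in ctrlA cells, 9861 to 20260 CPM in LNA1 cells and 10480 to 19900 CPM with LNA2. Epithelial markers summed to 1.48 to 8.28 CPM, 1.42 to 9.38 CPM and 2.06 to 8.73 CPM in the same order. Of these, Epcam, Cdh1, Krt18 and Cldn4 (4 of 6) were under 1 CPM in every library. Krt19 was at 0.610 to 7.90 CPM and Krt8 at 0.170 to 3.20 CPM. Preadipocyte markers summed to 14.9 to 66.3 CPM, 20.2 to 74.9 CPM and 21.2 to 71.9 CPM, with Ly6a at 5.68 to 63.3 CPM and Pdgfra at 6.74 to 16.4 CPM, while Dlk1 and Thy1 were under 1 CPM throughout. Of the 5 macrophage markers Ptprc, Adgre1 and Lyz2 were under 1 CPM in every library, but Cd68 was at 7.83 to 42.4 CPM and Csf1r reached 2.31 CPM, and the list summed to 8.23 to 24.7 CPM in ctrlA cells, 11.9 to 30.2 CPM with LNA1 and 14.03 to 44.3 CPM with LNA2. Cdh5, Kdr and Tek of the 4 endothelial markers were under 1 CPM and Pecam1 was at 1.59 to 3.82 CPM. Rbfox3, Snap25 and Syt1 of the 5 neuronal markers were under 1 CPM, Tubb3 reached 1.57 CPM and Map2 was at 2.85 to 11.3 CPM. Myod1, Myog and Myh1 of the 4 muscle markers were under 1 CPM, with Des at 3.82 to 12.9 CPM. The endothelial sums were 1.77 to 3.99 CPM, the neuronal 3.56 to 12.1 CPM and the muscle 3.82 to 12.97 CPM over all libraries, and their ranges overlapped between the LNAs. The ribosomal and mitochondrial shares, which differed between replicate 2 and the others in all 3 LNAs, were not tested for their part in the level of any gene. In bulk RNA, fewer cells expressing a gene and less RNA per cell cannot be told apart.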

How the data were processed

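The deposited table holds expected counts per gene, which the authors obtained by trimming reads with cutadapt and quantifying them with salmon against Gencode M22 (GRCm38), given as whole numbers. How salmon output was summed to genes, and whether strand was used, are not given in the sources used here. Columns were matched to the 18 libraries by title. The 7 genes, the lists of relatives and partners and the markers were chosen with earlier results of these data known, and all 7 genes, with the listed ones that were called, are named. Of the genes near the limit of that choice, 1 is not reported here.

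Genes were kept by filterByExpr (minimum count 10, minimum total 15), normalised by TMM and fitted with edgeR 4.0.16 in R 4.3.3 by quasi-likelihood, with all 18 libraries together and each group as a term. Adjustment was by Benjamini-Hochberg over all 14949 genes. A gene was called at an adjusted p below 0.05 and an absolute log2 fold change above 0.5 (interaction: adjusted p alone). SEs derive from the F statistic. Log2 CPM used a prior count of 2. The procedure was tested on simulated data drawn without a shared effect of the replicate number, and nothing is read from that test here. Intervals and the floor cover counting error only for counts, and spread between libraries for fold changes. Libraries of a group differed by more than sampling noise (chi-square per degree of freedom 4.32 to 177) and 0 pairs were identical.

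Replicate numbers recur in every group, and deviations from the group means were correlated between same-numbered libraries (r = 0.649 to 0.722 for number 2, 0.252 to 0.505 for number 3 and 0.240 to 0.470 for number 4, 15 pairs each), so that the numbers pair the libraries. Alternatives were the replicate block, DESeq2 1.42.0, its size factors, no filter, and leaving out libraries. LNA sites were searched in all transcripts of GENCODE M21, matched by identifier without version for 14936 of 14949 genes.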

Additional observations from a re-analysis of the deposited data

How the results depend on the processing

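Leaving Fam83e aside, none of the other 6 genes changed its call in any test of isoproterenol under the 23 alternatives. For all 7 the difference of LNA1 from ctrlA kept its sign. The choice of genes without overlap had fixed this, so that nothing is read from it. The difference of LNA1 from LNA2 also kept its sign, in comparisons that share the LNA1 libraries with the choice. That of LNA2 from ctrlA kept its sign for Sh2d5 and St7. For the other genes it turned in some fits that left out a library. With the replicate block, which pairs the libraries by number, St7 had the smallest adjusted p of these 6 for isoproterenol averaged over the LNAs (edgeR adjusted p = 0.0515). No call among the 6 changed. Carmil1 (adjusted p up to 0.0367) and Fam83a (up to 0.00122) stayed called in all 23.

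The counts over all genes moved more. The replicate block gave 1046 genes for isoproterenol averaged (479 without it), 635 within LNA2 (59), 364 for LNA1 against ctrlA (66) and 615 for LNA1 against LNA2 (138). Without the 6 replicate 2 libraries there were 726, 199, 180 and 443. DESeq2 gave 153 within LNA2, 133 for LNA1 against ctrlA and 232 for LNA1 against LNA2. Leaving out 1 library at a time gave 394 to 477, 23 to 66, 32 to 82 and 73 to 153. The count within LNA2 was 23 without unstimulated LNA2 replicate 3, 30 without replicate 4, 33 without replicate 2 and 37 without isoproterenol LNA2 replicate 3. LNA1 against ctrlA gave 32 without unstimulated ctrlA replicate 3 or unstimulated LNA1 replicate 4, 33 without isoproterenol LNA1 replicate 4, and 39 to 43 without isoproterenol ctrlA replicate 2 or 3, unstimulated ctrlA replicate 4 or either LNA1 replicate 3. LNA1 against LNA2 gave 73 without unstimulated LNA2 replicate 4, 79 without isoproterenol LNA1 replicate 4, and 86 or 87 without unstimulated LNA2 replicate 3 or either LNA1 replicate 3. The interaction count was 0 throughout, with 393 genes at an unadjusted p below 0.05 under the block. The cause of these shifts was not tested. Fam83e rests on few counts in ctrlA and LNA2, which limits its fold changes.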
